A study of Bos taurus and Sus scrofa with 6 samples.

Results

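Cell barcodes that carried UMIs of both cell division genes and Sertoli cell genes were selected from the single-cell RNA-sequencing libraries of prepubertal pig testes. A barcode was selected when at least 3 of the 5 division genes UBE2C, TOP2A, CENPF, NUSAP1 and PCLAF and at least 2 of the 8 Sertoli genes FSHR, SOX9, AMH, CLDN11, WT1, DHH, INHA and INHBB had a UMI, that is, a counted transcript molecule. Barcodes with UMIs of at least 2 germ cell genes (DDX4, MAEL, TDRD1), 2 Leydig cell genes (CYP17A1, CYP11A1, STAR) or 2 stromal genes (DCN, TCF21, PDGFRA) were dropped, as were barcodes under 696, 2444 or 3457 UMIs in pig 1, 2 and 3. The rule selected 27, 117 and 62 barcodes in the 3 pigs, or 206 of the 9457 pig barcodes above these minimums and of the 27961 such barcodes in the 6 pig and cattle libraries. These 206 barcodes are called the members below.

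The study profiled total testicular cells, collected by castration from 3 mixed breed pigs aged 3 months and 3 Holstein cattle aged 4.5 months, with 1 library for each animal and no treatment. Tissue was digested to single cells, live cells were loaded on the 10X Chromium Controller with v2 chemistry, and the libraries were sequenced together in 1 lane. The pig libraries held 6245189, 40099873 and 33500750 UMIs, with a median of 895, 3899 and 5923 UMIs for each barcode above the minimum. Among them 38 barcode sequences occurred in 2 libraries, and none of these was a member in both.

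Sertoli cells are the somatic nurse cells of the seminiferous tubule. Before puberty they divide under follicle-stimulating hormone, whose receptor is encoded by FSHR, and they leave the cell cycle when the blood-testis barrier forms, so that their final number sets how many germ cells the adult testis can support. UBE2C and TOP2A, a ubiquitin-conjugating enzyme of the anaphase-promoting complex and the topoisomerase that untangles sister chromatids, mark cells in late S, G2 and M phase of any cell type. SOX9 and WT1 are transcription factors of the Sertoli lineage, CLDN11 is a claudin of the Sertoli cell tight junction, and INHA encodes the inhibin alpha subunit.

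The members were chosen by 5 division genes, whose promoters are shown because CCAAT boxes and the cell cycle gene homology region (CHR) are the elements through which genes of the G2 and M phases are known to be held silent and then switched on. The 250 bases before each gene's start were read from the RefSeq Sscrofa11.1 assembly, 5′ to 3′ on the gene's own strand. Capitals mark CCAAT on either strand (CCAAT or ATTGG) and CHR letters on either strand (TTTGAA or its reverse complement TTCAAA, or TTTAAA), and these motifs do not overlap in any of the 5 sequences. UBE2C lies on chr17:48018403-48021542 (plus strand), TOP2A on chr12:22001300-22028452 (plus), CENPF on chr9:128948386-129012241 (minus), NUSAP1 on chr1:129992797-130065641 (minus) and PCLAF on chr1:107659509-107669477 (plus).
UBE2C: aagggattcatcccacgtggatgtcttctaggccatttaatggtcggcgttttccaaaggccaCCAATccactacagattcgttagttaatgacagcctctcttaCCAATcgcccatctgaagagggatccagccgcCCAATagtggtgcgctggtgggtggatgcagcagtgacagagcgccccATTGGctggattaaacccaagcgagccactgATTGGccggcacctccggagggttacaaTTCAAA
TOP2A: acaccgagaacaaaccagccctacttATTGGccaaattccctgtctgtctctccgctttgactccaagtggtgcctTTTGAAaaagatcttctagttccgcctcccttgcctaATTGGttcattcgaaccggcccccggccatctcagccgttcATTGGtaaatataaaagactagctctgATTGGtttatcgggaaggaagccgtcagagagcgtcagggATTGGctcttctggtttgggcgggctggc
CENPF: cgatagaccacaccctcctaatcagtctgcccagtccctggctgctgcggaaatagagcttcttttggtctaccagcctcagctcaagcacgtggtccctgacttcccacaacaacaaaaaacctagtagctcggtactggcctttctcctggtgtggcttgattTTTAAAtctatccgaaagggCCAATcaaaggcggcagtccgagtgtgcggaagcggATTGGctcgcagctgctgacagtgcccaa
NUSAP1: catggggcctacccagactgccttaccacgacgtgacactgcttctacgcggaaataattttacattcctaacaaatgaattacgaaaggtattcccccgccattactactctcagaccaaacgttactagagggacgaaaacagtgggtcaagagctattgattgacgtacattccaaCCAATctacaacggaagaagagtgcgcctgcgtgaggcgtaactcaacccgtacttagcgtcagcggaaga
PCLAF: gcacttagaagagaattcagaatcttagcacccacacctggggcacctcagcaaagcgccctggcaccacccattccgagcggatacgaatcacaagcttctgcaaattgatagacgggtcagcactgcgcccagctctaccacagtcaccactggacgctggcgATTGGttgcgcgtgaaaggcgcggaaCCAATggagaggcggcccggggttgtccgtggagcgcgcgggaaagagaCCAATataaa
UBE2C and TOP2A each held 5 CCAAT boxes and 1 CHR, CENPF held 2 and 1, NUSAP1 held 1 CCAAT box and no CHR, and PCLAF held 3 CCAAT boxes and no CHR. Of 118 division genes with a promoter in this annotation, which are the tested genes of the division lists described below and the 5 rule genes, 60 (50.8%) held a CCAAT box, 44 (37.3%) a CHR and 28 (23.7%) both. Over 19509 protein-coding genes the shares were 31.9%, 20.8% and 7.08%, and over 38 Sertoli genes they were 31.6%, 21.1% and 2.63%. A match of letters is a description of the sequence and not evidence of binding.

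Detection of the genes used in the rule was examined first, as a description with no test, because these genes chose the members. NUSAP1 had a UMI in 94.7% of the members, TOP2A in 84.5%, UBE2C in 83.5%, CENPF in 69.4% and PCLAF in 68.0%. Among the Sertoli genes, INHA had a UMI in 85.9% of members, CLDN11 in 71.4%, WT1 in 51.0%, SOX9 in 48.5% and INHBB in 19.9%. FSHR and DHH each had a UMI in 3.40% and AMH in 0.485%, so the FSH receptor itself was detected in few members. A comparison group of 681, 2241 and 220 non-dividing Sertoli barcodes was formed from barcodes that passed the same Sertoli rule and drops and had no UMI of the 5 division genes. In these 3142 barcodes the detection was 96.9% for INHA, 89.2% for CLDN11, 63.4% for SOX9, 35.8% for WT1, 6.37% for FSHR and 0.382% for AMH.

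Sertoli transcripts were also found in barcodes that should lack them. In 187 dividing germ barcodes (6, 47 and 134 in the 3 pigs), defined by at least 3 of the division genes and at least 2 of DDX4, MAEL and TDRD1, INHA had a UMI in 42.8%, WT1 in 30.5%, CLDN11 in 28.9% and SOX9 in 25.1%. The share was high in pig 2, where 87.2% of dividing germ barcodes had a UMI of INHA and 74.5% one of CLDN11, against 26.1% and 14.2% in pig 3. Median depth was 3943, 5785 and 18371.5 UMIs in the members of pig 1, 2 and 3, 889, 3824 and 5077 in the non-dividing Sertoli barcodes, and 4351.5, 21260 and 19181.5 in the dividing germ barcodes. Barcodes below the minimum UMIs, which can hold free RNA of the suspension as well as small or damaged cells, carried the 8 Sertoli genes at a summed 2232, 2261 and 371 CPM in pig 1, 2 and 3. The sums were 1342, 1479 and 267 CPM in members, 4825, 3744 and 3170 CPM in non-dividing Sertoli barcodes and 312, 251 and 57.2 CPM in dividing germ barcodes. In every pig the sum of the members was thus below that of the barcodes under the minimum, and how much of the members' Sertoli UMIs came from free RNA was not tested. The Sertoli count of the rule was met by 2, 41 and 39 of the dividing germ barcodes, which were dropped for their germ genes.

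Genes outside the rule went against the label "dividing Sertoli cells" for many of the members. CLU (ENSSSCG00000009668, chr14:11336585-11352569), which encodes the secreted chaperone clusterin, stood at 5769, 6377 and 898 counts per 1000000 UMIs (CPM) in the summed members of pig 1, 2 and 3, at 27731, 18318 and 18697 CPM in the non-dividing Sertoli barcodes, and at 866, 966 and 150 CPM in the dividing germ barcodes. Every pig had less CLU in its members than in its non-dividing Sertoli barcodes, and pig 3 stood apart from the other pigs. CST9L (ENSSSCG00000029289), a cystatin family gene, showed the same order with 3638, 7417 and 655 CPM in members, 13008, 19381 and 12117 CPM in non-dividing and 935, 1176 and 91.3 CPM in dividing germ barcodes.

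Transcripts of the germ line were present in the members although barcodes with 2 germ genes had been dropped. UCHL1 (ENSSSCG00000022945, chr8:32353766-32367288), a ubiquitin hydrolase abundant in spermatogonia, stood at 253, 432 and 394 CPM in members, 118, 20.1 and 23.9 CPM in non-dividing Sertoli barcodes and 346, 602 and 416 CPM in dividing germ barcodes. The members lay above the non-dividing barcodes in all 3 pigs without overlap. ELAVL2 (ENSSSCG00000005130, chr1:198964070-199135815), an RNA-binding protein gene, stood at 224, 221 and 276 CPM in members and at 39.7, 12.6 and 15.4 CPM in non-dividing barcodes, again without overlap. DDX4, the germ cell RNA helicase of the drop rule, had a UMI in 17.0% of members and 0.923% of non-dividing Sertoli barcodes. It is a gene of the rule and depth was unequal, with medians of 18371.5 and 5077 UMIs in pig 3. Nothing is therefore read from its shares.

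**Figure D1:**
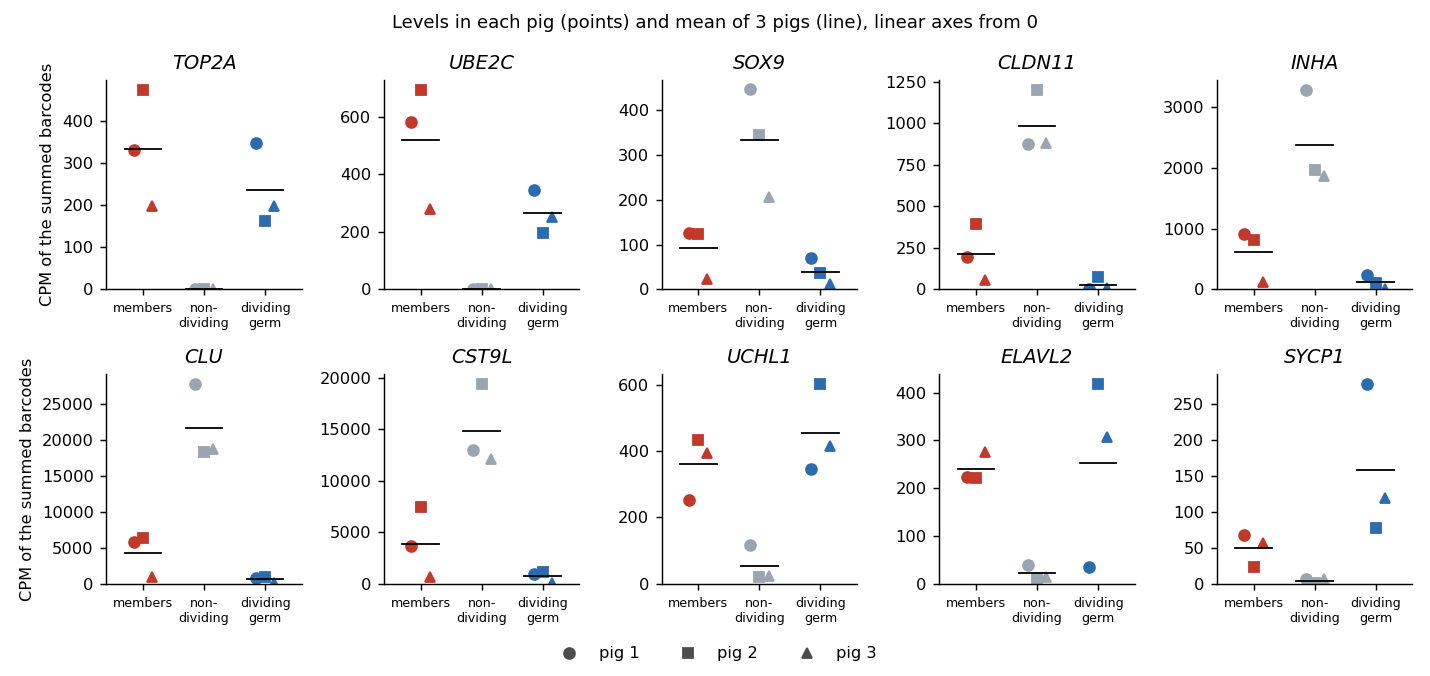
Levels of 10 genes in counts per 1000000 UMIs (CPM, linear axes from 0) in the summed barcodes of each pig, for members, non-dividing Sertoli barcodes and the 187 dividing germ barcodes. Each point is 1 pig and each line the mean of 3 pigs. CLU and CST9L were below the non-dividing level in the members of every pig, while UCHL1, ELAVL2 and SYCP1 were above it.

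To describe how the members differed among themselves, each barcode was placed by the summed CPM of CLU and CST9L and by the summed CPM of a list of 26 germ cell genes. The levels of 10000 CPM and 500 CPM that divide the barcodes were set after the values had been seen, so the groups carry no test. In the summed barcodes below the minimum UMIs, CLU alone stood at 15152 CPM in pig 1, above the first level. CST9L alone stood at 14117 CPM there in pig 2, while neither gene was above 2715 CPM in pig 3. CLU and CST9L together passed 10000 CPM in 94.9%, 91.7% and 74.5% of non-dividing Sertoli barcodes and in 0%, 2.13% and 0% of dividing germ barcodes. In the members the shares were 48.1%, 58.1% and 8.06%. The germ list passed 500 CPM in 55.6%, 40.2% and 82.3% of members, against 10.1%, 3.75% and 2.27% of non-dividing barcodes.

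By these levels, 71 of the 206 members (34.5%) were high for CLU and CST9L without germ genes, and are called CLU-high. They numbered 10, 57 and 4 in pig 1, 2 and 3. A larger group of 98 members (47.6%; 12, 36 and 50) was high for germ genes without CLU and CST9L, and is called germ-gene. Both levels were passed by 15 members (7.28%) and neither by 22 (10.7%). In pig 3, 50 of 62 members were thus germ-gene barcodes, and pig 2 held 57 of the 71 CLU-high ones. CLU-high barcodes had medians of 1399.5, 5529 and 5746.5 UMIs and germ-gene barcodes 5504.5, 13565.5 and 19666 UMIs. Below 2000 UMIs a single germ list UMI passes the level, and 16 of the 27 members of pig 1 were at or above that depth.

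**Figure D2:**
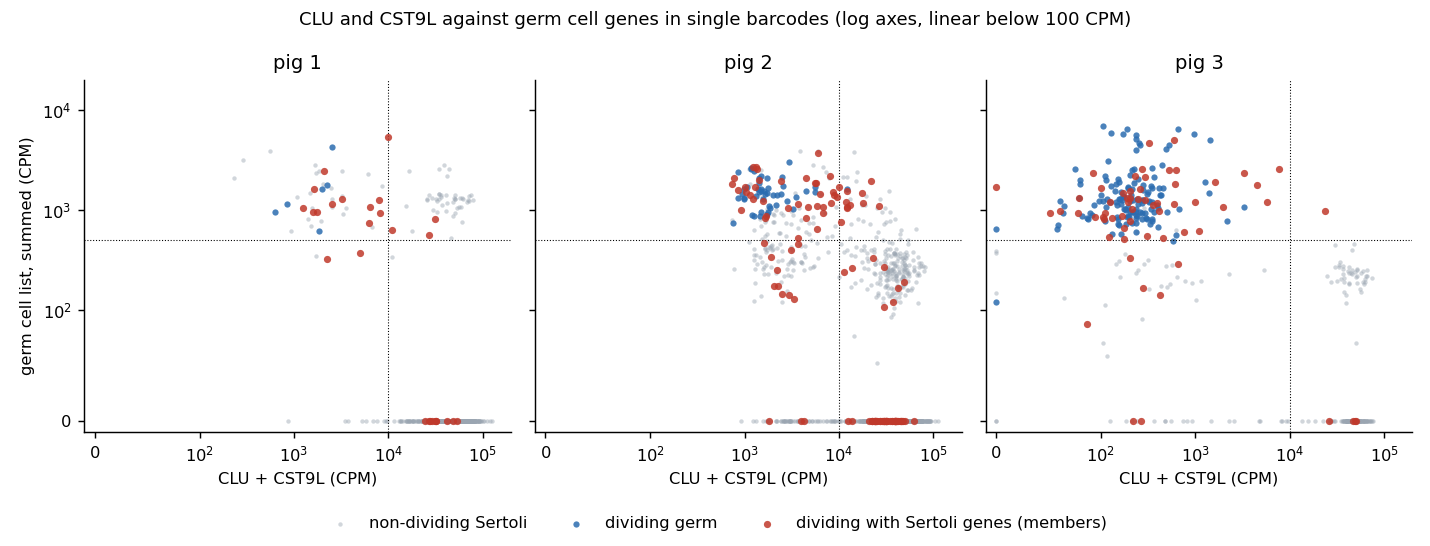
Each point is 1 barcode of pig 1, 2 or 3, with the summed CPM of CLU and CST9L on the x axis and the summed CPM of 26 germ cell genes on the y axis (log axes, linear below 100 CPM). Dotted lines mark 10000 and 500 CPM. Members (red) lay past the 10000 CPM line alone (71, with most non-dividing Sertoli barcodes, grey), past the 500 CPM line alone (98; dividing germ barcodes are blue), past both (15) or past neither (22), and in pig 3 only 5 of 62 lay to the right of the 10000 CPM line.

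The rule's own genes were also counted in the 2 groups. CLDN11 had a UMI in 93.0% of CLU-high and 59.2% of germ-gene members, SOX9 in 70.4% and 36.7%, and INHA in 100% and 74.5%. WT1 had a UMI in 54.9% and 48.0%, TOP2A in 81.7% and 86.7% and NUSAP1 in 95.8% and 96.9%. These shares belong to the genes of the rule and were measured at unequal depth, with medians of 5529 UMIs in CLU-high and 13565.5 UMIs in germ-gene members of pig 2, so no likeness or difference is read from them. DDX4 had a UMI in 2.82% of CLU-high and 32.7% of germ-gene members. MAEL, a factor of transposon silencing in germ cells, was found in 0 of the 71 CLU-high members and in 16.3% of germ-gene members. Both are genes of the drop rule measured at the same unequal depth, so nothing is read from these shares either.

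The edges of the rule separated these kinds of barcode only in part. Of dividing barcodes without a drop, CLU-high barcodes made up 0.382% of those with no Sertoli gene, 6.22% of those with 1 gene, 12.1% with 2, just inside the rule, 36.2% with 3 and 77.6% with 4 or more. Germ-gene barcodes made up 68.3%, 64.8%, 64.6%, 44.8% and 16.3% of the same groups. The pigs were unevenly mixed in these groups, since pig 2 gave 44 of the 49 barcodes with 4 or more Sertoli genes and pig 3 gave 202 of the 262 with none. Within single pigs the CLU-high shares with 2, 3 and 4 or more Sertoli genes were 29.4%, 44.4% and 100% of 17, 9 and 1 barcodes in pig 1. They were 17.1%, 46.9% and 79.5% of 41, 32 and 44 barcodes in pig 2 and 0%, 11.8% and 50% of 41, 17 and 4 barcodes in pig 3. Of Sertoli barcodes, CLU-high ones made up 88.8% of those with no division gene, 81.4% with 1, 45.3% with 2, just outside the rule, and 33.3%, 39.2% and 30.3% with 3, 4 and 5. Here too the pigs differed. In the same order the shares were 88.3%, 63.1%, 32%, 57.1%, 31.6% and 0% in pig 1, the last of 1 barcode. They were 90.4%, 87.8%, 55.4%, 39.5%, 62.2% and 45.2% in pig 2 and 74.5%, 56.4%, 29.0%, 14.3%, 0% and 4.35% in pig 3. Of the 104 barcodes dropped for germ, Leydig or stromal genes, 87 were germ-gene and 9 CLU-high. Of the 60 members with a UMI of 1 germ rule gene, 55 were germ-gene and 2 CLU-high.

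Depth also bore on which barcodes met the rule. After each member was thinned to 2000 UMIs, 49 of the 195 that were deep enough still met both counts of the rule. These were 35 of 62 CLU-high and 7 of 98 germ-gene members, with the rest among the other 2 groups. At least 2 Sertoli genes were left in 54 of 62 CLU-high and 21 of 98 germ-gene members, and at least 3 division genes in 41 and 26. Over all 195 members, 84 kept the Sertoli count and 84 kept the division count.

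The Sertoli genes outside the rule were also summed in the groups of members. The summed level of a list of 40 such genes was 45274, 43820 and 58167 CPM in CLU-high members, 53563, 49741 and 41833 CPM in non-dividing barcodes and 7602, 4770 and 2612 CPM in germ-gene members. All members held the list at 14446, 19393 and 4228 CPM. Barcodes below the minimum UMIs held it at 35675, 38790 and 10175 CPM, and the part of free RNA in these levels was not tested. The summed 26 germ cell genes were at 0, 35.9 and 0 CPM in CLU-high members and at 1417, 1697 and 1233 CPM in germ-gene members, with UCHL1 the most abundant gene of the list in the germ-gene members of every pig. CLU and CST9L are on the Sertoli list, so its level is partly fixed by the choice of the groups, as is the germ list's.

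Division genes were high in both groups of members. Spindle and kinetochore genes summed to 5891, 5527 and 3297 CPM in CLU-high, 4009, 4312 and 3408 CPM in germ-gene and 558, 423 and 404 CPM in non-dividing barcodes. Mitotic kinases and cyclins summed to 2184, 2654 and 1803 CPM, 2262, 2294 and 1923 CPM, and 274, 198 and 270 CPM. The groups of members overlapped for both lists and lay above the non-dividing barcodes in every pig. DNA replication genes were lower in CLU-high members, at 2250, 2687 and 2066 CPM, than in germ-gene members, at 3407, 4034 and 3454 CPM. The CLU-high sums of this list rested on 34, 899 and 47 UMIs in pig 1, 2 and 3. Genes of anaphase and mitotic exit summed to 2780, 2493 and 1407 CPM in CLU-high and 1446, 1134 and 1037 CPM in germ-gene members. Of these sums ARL6IP1 alone made up 1258, 1124 and 703 CPM and 157, 293 and 189 CPM, and the list rested on 32 UMIs in the CLU-high members of pig 3. Both groups had met the division rule at unequal depth, and the part of this choice in their division levels was not tested.

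**Figure D3:**
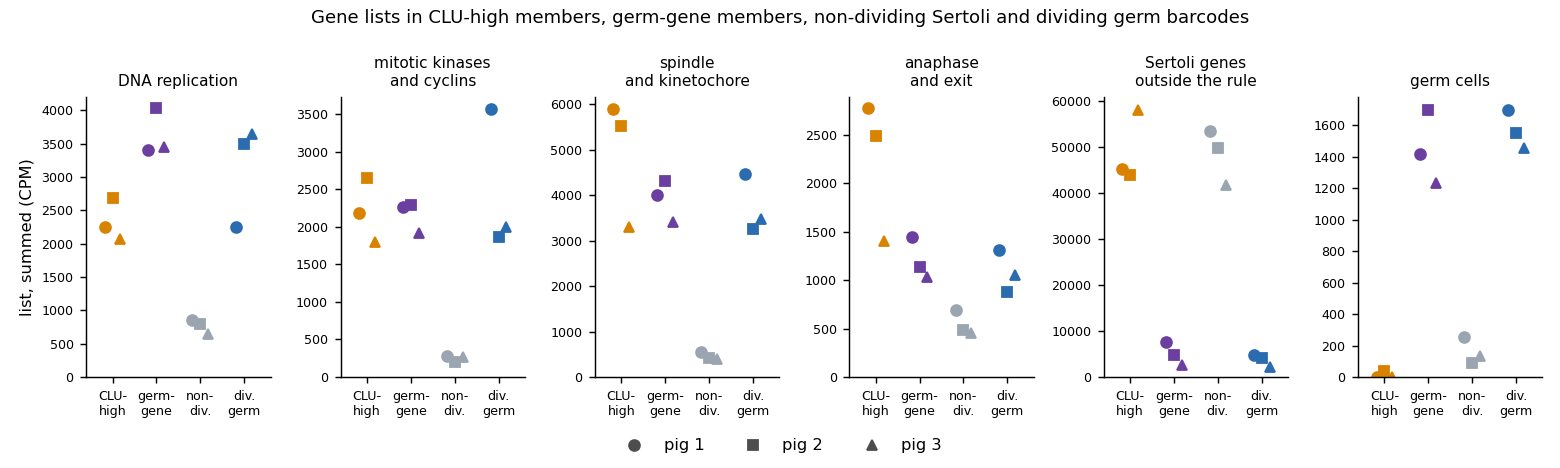
Summed CPM of 6 gene lists (linear axes from 0) in CLU-high members, germ-gene members, non-dividing Sertoli barcodes and dividing germ barcodes, with 1 point for each pig. Division lists were above the non-dividing level in both groups of members. Sertoli genes outside the rule were high in CLU-high members and germ cell genes in germ-gene members, which the choice of the groups fixes in large part.

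Pig 2 held enough CLU-high members (57 barcodes, 334531 UMIs) to read single genes, with exact Poisson 95% intervals that cover counting error in this 1 animal and are no test of the condition. GATA4, a transcription factor of gonadal somatic cells that neither the rule nor the division into groups used, stood at 114 CPM (80.4 to 156) against 101 CPM in the non-dividing Sertoli barcodes. Other such genes differed by more than counting error, in both directions. CST3 was lower, at 5384 CPM (5138 to 5638) against 6823 CPM, as was GJA1, at 50.8 CPM (29.6 to 81.4) against 90.9 CPM. VIM was higher, at 1118 CPM (1008 to 1237) against 925 CPM, as was SERPINA5, at 1525 CPM (1395 to 1663) against 1306 CPM. CLU stood at 14913 against 18318 CPM, INHA at 1955 against 1962 CPM, SOX9 at 251 against 343 CPM and CLDN11 at 891 against 1201 CPM. These 4 genes chose the barcodes, so nothing is read from their levels. UCHL1 and ELAVL2 each had 1 UMI in these 57 barcodes. Both are on the germ list whose low level chose CLU-high members, so nothing is read from this either.

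Among division genes of the same barcodes, CDC20, the activator of the anaphase-promoting complex, stood at 338 CPM (278 to 406) against 2.22 CPM in non-dividing barcodes. The cyclin CCNB1 stood at 248 CPM (198 to 308) against 3.64 CPM, the proliferation antigen MKI67 at 56.8 CPM (34.2 to 88.7) against 0.404 CPM, and the sliding clamp PCNA at 401 CPM (336 to 474) against 60.3 CPM. Some genes differed between the kinds of members of this pig by more than counting error, and examples are given with no test. Both kinds had met the division rule at unequal depth, with medians of 5529 UMIs in CLU-high and 13565.5 UMIs in germ-gene members. The 5 division genes of the rule summed to 3683 and 1482 CPM in them. How far differences in other division genes follow from this choice was not tested. The cytokinesis factor ECT2 was at 114 CPM (80.4 to 156) in CLU-high and 16.9 CPM (7.28 to 33.2) in germ-gene members, and AURKB, the kinase of the chromosomal passenger complex, at 161 CPM (121 to 211) and 29.5 CPM (16.1 to 49.5). In the other direction, the helicase subunit MCM5 was at 41.9 CPM (22.9 to 70.2) and 133 CPM (102 to 170), and HELLS, a chromatin remodeler, at 41.9 CPM (22.9 to 70.2) and 312 CPM (264 to 367).

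The cyclins of G1 and the inhibitors of the cycle were read in the same way. CCND2, the D cyclin that FSH induces in granulosa and Sertoli cells, stood at 209 CPM (163 to 264) in the CLU-high members of pig 2, below the 338 CPM of its non-dividing Sertoli barcodes. It was also below in pig 1 (397 against 672 CPM) but above in pig 3 (220 against 149 CPM). All G1 cyclin and E2F genes together had 13 and 12 UMIs in the CLU-high members of these 2 pigs. CCND1 was at 35.9 CPM (18.5 to 62.7) against 35.2 CPM and reached 209 CPM (170 to 254) in germ-gene members. CDKN1B, the inhibitor p27 that accumulates as Sertoli cells leave the cycle, was at 29.9 CPM (14.3 to 55.0) against 43.9 CPM, a difference within counting error.

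All 206 members were next compared with the non-dividing Sertoli barcodes of the same pigs, with the UMIs of each group summed for each pig (n = 3 different pigs). Because the groups were chosen by division genes of these same barcodes, higher division genes are a description of the selection and support nothing further. Of 12756 genes outside the rule with at least 10 UMIs over the 6 sums, 721 (5.65%) were higher and 532 (4.17%) lower in members by edgeR's quasi-likelihood test at a Benjamini-Hochberg adjusted p under 0.05, or 9.82% in all. The median log2 fold change of all genes was -0.18. With the animal as a block, as both groups come from the same 3 libraries, 1546 (12.1%) were higher and 2050 (16.1%) lower (28.2% in all). With non-dividing barcodes matched to the members' UMIs, 88 were higher and 3 lower of 11035 genes, although the matched barcodes of pig 3 still had a median of 7665 UMIs against 18371.5. The calls numbered 682, 671 and 395 without pig 1, 2 and 3.

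Division genes made up the clearest groups, where 5.65% of all genes were higher. Of 17 tested mitotic kinases, cyclins and their partners, 15 were higher and none lower, with a median log2 fold change of 4.51. CCNB1, the cyclin that drives entry into mitosis, stood at 146, 172 and 125 CPM in members and 9.58, 3.64 and 4.63 CPM in non-dividing barcodes (log2 fold change 4.57 ± 0.45 SE, edgeR adjusted p = 0.000496). BUB1B, a kinase of the spindle checkpoint, stood at 58.4, 63.3 and 48.7 CPM against 2.74, 1.21 and 0.772 CPM. PLK1, the polo kinase, had no UMI in any non-dividing sum, so no fold change is given. Both named genes were without overlap in the 3 pigs. With barcodes matched on UMIs, 12 of the kinases and cyclins were higher, beside 88 of 11035 genes in all.

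Of 32 spindle and kinetochore genes, 26 were higher and none lower (median 3.87). SGO1, which guards the cohesin of the centromere, stood at 165, 101 and 43.5 CPM in members and 4.11, 0.202 and 0.772 CPM in non-dividing barcodes (6.74 ± 0.90 SE, edgeR adjusted p = 0.00195). CDCA8, a subunit of the chromosomal passenger complex, stood at 107, 63.3 and 50.4 CPM against 0, 0.707 and 0.772 CPM (6.32 ± 0.54 SE, edgeR adjusted p = 0.000239). Members were above non-dividing barcodes in each pig for both genes. Of 11 genes of anaphase and mitotic exit, 9 were higher (median 4.09), with CDC20 at 156, 219.6 and 117 CPM against 1.37, 2.22 and 7.72 CPM. Of 17 genes of chromosome structure, 14 were higher (median 1.91), among them MKI67, the condensin subunits NCAPG and NCAPH, and HMGB2, which stood at 1780, 1549 and 1318 CPM against 119, 53.2 and 82.6 CPM.

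Of 37 DNA replication genes, 27 were higher, with a median of 2.18. The thymidine kinase TK1 stood at 117, 116 and 65.2 CPM against 1.37, 1.92 and 1.54 CPM (5.47 ± 0.45 SE, edgeR adjusted p = 0.00024) and the ribonucleotide reductase subunit RRM2 at 58.4, 66.5 and 64.3 CPM against 1.37, 1.01 and 2.31 CPM. PCNA, by contrast, was measured in non-dividing barcodes at 43.8, 60.3 and 67.1 CPM, and was higher in members by 2.02 ± 0.31 SE. The helicase subunits MCM3, MCM4, MCM5 and MCM6 were all called, at log2 fold changes of 2.28, 2.51, 2.62 and 2.30. With barcodes matched on UMIs, 7 of the replication genes were higher, beside 88 of 11035 genes in all.

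Genes that control entry into the cycle were counted next, beside 5.65% higher and 4.17% lower over all genes. Of 20 G1 cyclin and E2F genes, 5 were higher (CCNE2, E2F2, E2F7, E2F8 and TFDP1) and none lower. CCND2 stood at 156, 189 and 46.9 CPM in members and 672, 338 and 149 CPM in non-dividing barcodes (log2 fold change -1.92 ± 0.61 SE, edgeR adjusted p = 0.0696), and it was lower with the animal as a block. Of 10 cycle inhibitors, CDKN2C was higher and GADD45B lower. None of the genes of either list was called with barcodes matched on UMIs, where 91 of 11035 genes were called in all.

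Of 31 tested Sertoli genes outside the rule, 12 were lower in members, 1 was higher and 18 did not pass the test. Over all genes 4.17% were lower. The median log2 fold change of the list was -1.64 against -0.18 over all genes. The lower genes were the transcription factors GATA4, NR5A1 and NR0B1, the activin subunit INHBA, CLU, CST3, VIM, MRO, WNT6, SERPINA5, SPARC and GSTA1. CLU was lower by -2.65 ± 0.57 SE (edgeR adjusted p = 0.0186) and CST3, which encodes cystatin C, by -2.24 ± 0.35 SE (edgeR adjusted p = 0.00466). DMRT1, a transcription factor of both Sertoli cells and spermatogonia, was the higher gene, at 457, 334 and 493 CPM against 61.6, 80.1 and 74.8 CPM (2.26 ± 0.28 SE, edgeR adjusted p = 0.00154). In the CLU-high members alone DMRT1 stood at 132, 105 and 132 CPM, and in the germ-gene members at 530, 561 and 552 CPM. The lower calls numbered 18 with the animal as a block, 0 with barcodes matched on UMIs, and 2, 13 and 6 without pig 1, 2 and 3. Over all genes, 2050 of 12756 were lower with the block and 3 of 11035 with matched barcodes. Without pig 1, 2 and 3 they were 133 of 12604, 413 of 10846 and 117 of 12258.

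Of 19 tested germ cell genes, 8 were higher in members, 11 did not pass the test and none was lower (median 2.61). Over all genes 5.65% were higher. The higher genes were UCHL1, ELAVL2, the synaptonemal complex genes SYCP1 and SYCP2, SPO11, FOXR1, TEX14 and TEX15. UCHL1 was higher by 2.51 ± 0.65 SE (edgeR adjusted p = 0.0361) and ELAVL2 by 3.21 ± 0.47 SE (edgeR adjusted p = 0.00325), each in 3 of 3 pigs. SYCP1 stood at 68.1, 23.2 and 57.4 CPM in members and at 6.84, 1.21 and 6.17 CPM in non-dividing barcodes. The list summed to 1041, 942 and 1118 CPM in members, with 17, 22 and 23 of its 26 genes detected, and to 257, 88.3 and 133 CPM in non-dividing barcodes. The higher calls numbered 16 with the animal as a block, 0 with barcodes matched on UMIs, and 10, 5 and 4 without pig 1, 2 and 3. Over all genes, 1546 of 12756 were higher with the block and 88 of 11035 with matched barcodes. Without pig 1, 2 and 3 they were 549 of 12604, 258 of 10846 and 278 of 12258.

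**Figure D4:**
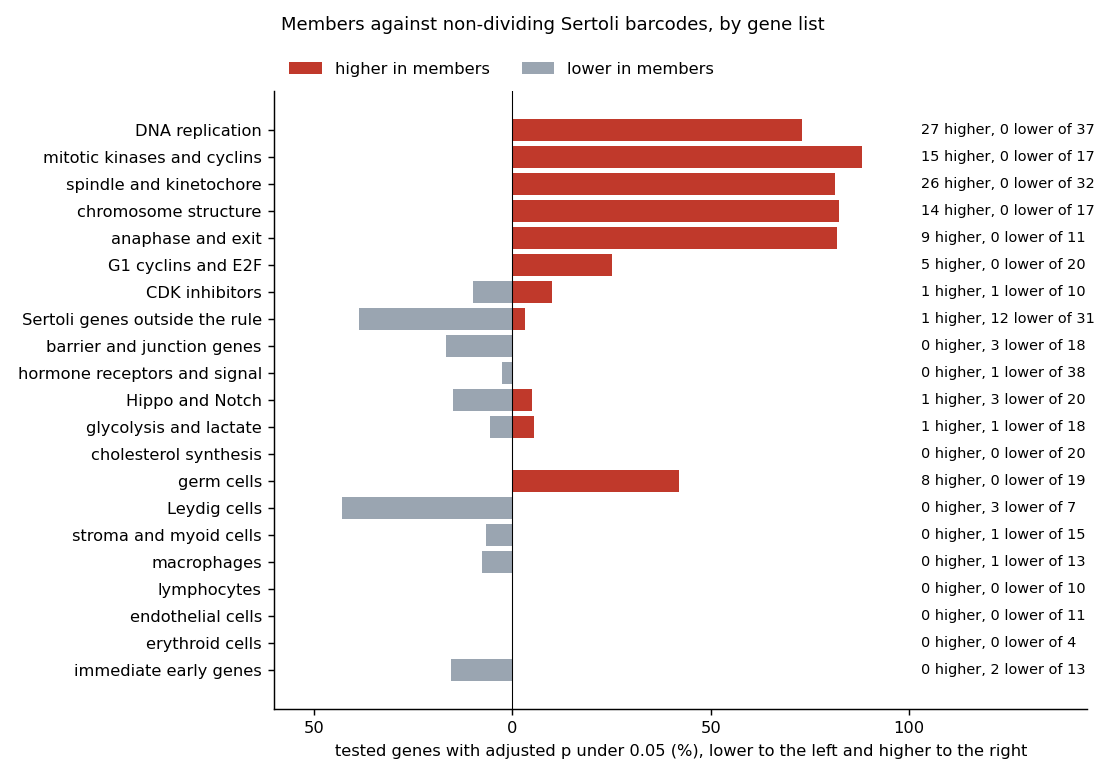
Share of the tested genes of each list with an edgeR adjusted p under 0.05 in members against non-dividing Sertoli barcodes (%), with lower genes to the left and higher genes to the right, and the counts at the side. The first 5 lists, of division genes, and the germ cell list lie to the right, and Sertoli genes outside the rule, with 12 of 31 lower, to the left.

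Other functions of the Sertoli cell were counted in the fit without the block, where 4.17% of all genes were lower and 5.65% higher. With the animal as a block 16.1% of all genes were lower and 12.1% higher. Of 18 barrier and junction genes, 3 were lower (median -1.05), among them GJA1 and NECTIN2. GJA1, the connexin of Sertoli cell gap junctions, stood at 0, 32.7 and 10.4 CPM against 54.7, 90.9 and 65.6 CPM. Of 38 hormone receptor and signalling genes, the retinoic acid receptor RARA was lower, at 29.2, 21.1 and 31.3 CPM against 56.1, 56.0 and 64.8 CPM. Of 20 Hippo and Notch genes, NOTCH2, HES1 and HEY1 were lower and the kinase STK4 was higher. Of 18 genes of glycolysis and lactate export, by which Sertoli cells feed germ cells, ALDOA was lower and the lactate transporter SLC16A1 higher. Of 20 cholesterol synthesis genes, 0 were called by edgeR or DESeq2 and 1 had an unadjusted edgeR p under 0.05. SC5D, a sterol desaturase, was lower with the animal as a block. Of 13 immediate early genes, which respond to dissociation, FOS and EGR1 were lower, and neither was called when library size alone was used for scaling.

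Apart from germ cells, no marker on the lists of other cell types was called higher in the summed members by edgeR, but the sums did not show what single members carried. UMIs of at least 4 genes of the endothelial, macrophage or lymphocyte list were found in 19 of the 22 members that passed neither the CLU nor the germ gene level, against 2 of the 71 CLU-high members and 277 of the 3142 non-dividing Sertoli barcodes (8.82%). The pigs differed, with 2.06%, 8.79% and 30% of the non-dividing barcodes in pig 1, 2 and 3. This number of genes was set after values had been seen, carries no test, and is reached more easily in deeper barcodes. Of the 22, 16 did so for endothelial, 3 for macrophage and 2 for lymphocyte genes, with some on more than 1 list. Of the 98 germ-gene members 19 did so, 18 of them in pig 3 for macrophage genes, or 36% of the germ-gene members of that pig.

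The 2, 13 and 7 members that passed neither level in pig 1, 2 and 3 held endothelial genes at a summed 345, 2428 and 2647 CPM, against 49.3, 431 and 879 CPM in non-dividing barcodes, with PLVAP, EGFL7 and VWF the most abundant. Macrophage genes summed to 431, 2532 and 7008 CPM in them, of which CD74, an antigen presentation gene, made up 2439 and 4226 CPM in pig 2 and 3. In pig 3, 318 of the 675 macrophage UMIs and 104 of the 255 endothelial UMIs came from 1 barcode each. In pig 2, 0 of the 13 barcodes had UMIs of at least 4 macrophage genes. Lymphocyte genes summed to 0, 374 and 571 CPM, and 30 of the 36 lymphocyte UMIs in pig 2 and 44 of the 55 in pig 3 came from 1 barcode each. The Sertoli genes outside the rule summed to 8613, 6289 and 5783 CPM in these members. These 22 barcodes met the rule with CLU and CST9L under 10000 CPM, and they remained in every comparison of all members.

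In the sums of all members the lists of other cell types were as follows, beside 4.17% lower over all genes. Of 7 Leydig cell genes, FDXR, HSD17B3 and CYB5A were lower, and the list summed to 1352, 827 and 507 CPM in members against 3576, 1787 and 1525 CPM, with INSL3 its most abundant gene in pig 1 and CYB5A in pig 2 and 3. Of 13 macrophage genes, LYZ was lower, at 0, 0 and 3.48 CPM against 5.47, 11.2 and 57.1 CPM, and the call was lost without any 1 of the pigs. The macrophage list summed to 263, 413 and 1061 CPM in members and 669, 628 and 2961 CPM in non-dividing barcodes. Of 15 stromal and myoid genes, TAGLN was lower. Of 10 lymphocyte, 11 endothelial and 4 erythroid genes, 0 were called by edgeR or DESeq2 and 0 had an unadjusted edgeR p under 0.05. With the animal as a block 7 of the endothelial genes and HBB, of the erythroid ones, were lower, beside 16.1% of all genes. Summed levels were above the non-dividing ones for the lymphocyte list in pig 2 (54.9 against 26.5 CPM) and the endothelial list in pig 1 (117 against 49.3 CPM), and below them in the other pigs. The part of RNA from other cells in these levels was not tested.

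The genes with the largest changes were named by rank. The 10 highest by log2 fold change among called genes that moved the same way in every pig were SGO1, CDCA8, ASPM, DLGAP5, CDCA3, NDC80, KIF2C, CKAP2, MKI67 and SHCBP1, from 6.74 to 5.51. Outside the division lists they were SHCBP1, CHD5, EXO1, DEPDC1B, NRN1, CENPN, ASF1B, ESCO2, CIT and KIFC1, from 5.51 to 4.80. Among these, ASF1B is a histone chaperone, ESCO2 an acetyltransferase of cohesin, CIT a kinase of cytokinesis and KIFC1 a spindle motor. CHD5, a chromatin remodeler, stood at 87.6, 16.9 and 56.5 CPM in members and 5.47, 0.202 and 0.772 CPM in non-dividing barcodes. NRN1, which encodes neuritin, stood at 136, 42.2 and 100 CPM against 6.84, 0.505 and 3.09 CPM.

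Among the 10 lowest, from -5.79 to -3.07, were PPP1R17, LYZ, RAB17, CALY, FAIM2, SCD5, ETNK2, HSD17B14 and ADORA1. ETNK2, an ethanolamine kinase, stood at 0, 28.5 and 3.48 CPM in members and at 125, 120 and 98.8 CPM in non-dividing barcodes. ADORA1, an adenosine receptor, stood at 0, 24.3 and 4.35 CPM against 84.8, 83.8 and 97.2 CPM. With barcodes matched on UMIs these 9 genes had edgeR adjusted p from 0.0750 to 0.178 and were not called. That fit called 88 genes higher and 3 lower of 11035. Of the 19 higher genes named, 12 were still called there, and 7 (NDC80, SHCBP1, CHD5, DEPDC1B, NRN1, ESCO2 and CIT) were not, although their log2 fold changes there ran from 3.11 to 6.73.

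The members were then compared with dividing germ barcodes that had fewer than 2 Sertoli genes (4, 6 and 95 barcodes in pig 1, 2 and 3) of the same testes. Both groups were chosen by the same count of division genes, and 98 of the 206 members were germ-gene barcodes, so few differences in division genes are a description of the selection and say nothing of Sertoli cells. Of 11049 genes, 346 (3.13%) were higher and 162 (1.47%) lower in members, or 4.6% in all, and 206 (1.86%) and 158 (1.43%), or 3.29%, with the animal as a block. Of 37 replication, 32 spindle and kinetochore and 17 chromosome structure genes, 0 were called by edgeR in either fit or by DESeq2, and 1, 2 and 2 had an unadjusted edgeR p under 0.05. PKMYT1, the kinase that holds CDK1 inactive, was lower in members, at 0, 9.50 and 6.09 CPM against 139, 125 and 26.3 CPM (-2.91 ± 0.71 SE, edgeR adjusted p = 0.00209). BTG2, an antiproliferative factor, was higher at 29.2, 395 and 196 CPM against 0, 9.61 and 21.7 CPM, with 191 of its 374 UMIs in pig 2 and 207 of 225 in pig 3 from the members that passed neither the CLU nor the germ gene level. CCND2 and PIMREG were higher but lost the call with the block (edgeR adjusted p = 0.0718 and 0.146). The few germ barcodes of pig 1 and 2 limit this comparison, and the calls numbered 252, 57 and 163 without pig 1, 2 and 3.

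The share of Sertoli barcodes that met the division rule was 3.38% (exact binomial 95% interval 2.24 to 4.88), 3.99% (3.31 to 4.76) and 15.9% (12.4 to 19.9) in pig 1, 2 and 3, or 7.74% ± 7.03 (SD, n = 3 different pigs). The value of pig 3 was above the intervals of the other pigs, and 80.6% of its members were germ-gene barcodes. After thinning of each barcode to 2000 UMIs the shares were 12.8% (4.30 to 27.4; 5 of 39 barcodes), 1.62% (1.18 to 2.17; 44 of 2713) and 1.57% (0.429 to 3.97; 4 of 255), and the order of the pigs was no longer the same. In pig 1, 2778 barcodes were shallower and were left out, so its share also changed with which barcodes were kept, and at 1000 UMIs it was 3.73% (9 of 241).

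Under the same rule, 2 of 271, 6 of 1607 and 5 of 997 Sertoli-rule barcodes of the cattle libraries met the division rule (0.738%, 0.373% and 0.502%) before thinning and 0 of 48, 2 of 1101 and 0 of 972 after it, where the exact upper limits were 7.40%, 0.655% and 0.379%. The mean thinned share of the pigs was 5.28 percentage points above that of the cattle, given with no test because the share counts the rule's own genes. The difference was 1.53 points without pig 1, 1.41 points with at least 4 division genes required and 1.45 points after thinning to 1000 UMIs. CLU and germ gene levels were not examined in the cattle barcodes. Species and age differed together and cannot be told apart.

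**Figure D5:**
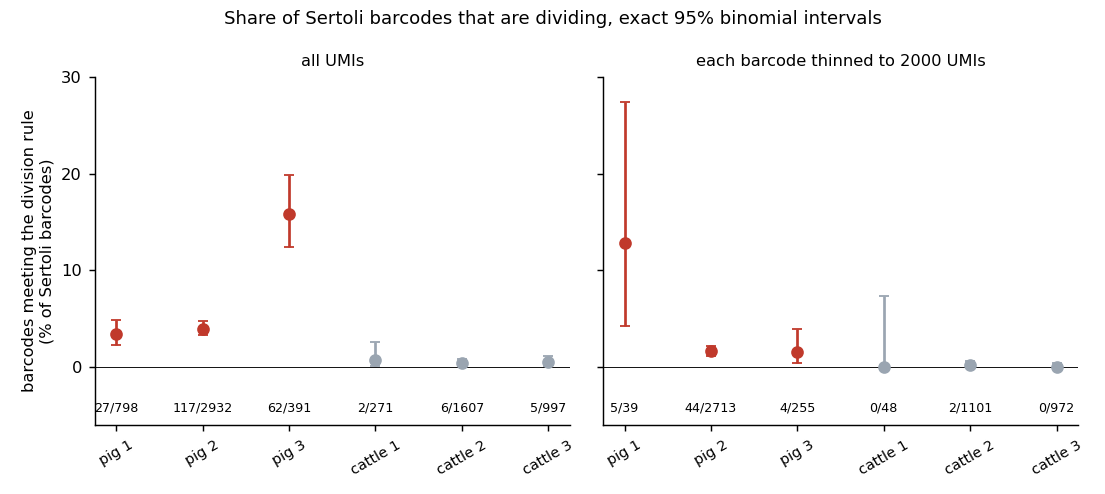
Barcodes that met the division rule as a share of Sertoli barcodes (%) in each pig and cattle library, from all UMIs (left) and after thinning to 2000 UMIs (right), with exact binomial 95% intervals for counting error and the counts below. The high share of pig 3, 15.9%, fell to 1.57% after thinning.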

How the data were processed

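The UMI counts of genes by barcode were deposited by the authors without normalization. The authors assigned reads to genes with Cell Ranger (2.1.0 in the submitters' processing notes; the pig file headers give software version 3.0.2), aligned to Sscrofa11.1 for pigs and ARS-UCD1.2 for cattle, and the strand setting is not given in the sources used here. Each library was 1 animal, so replicates were animals. The members, gene lists and tests were chosen with earlier results of these data known.

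Minimum UMIs for a barcode followed the Cell Ranger 2 rule (the 99th percentile of the top 3000 barcodes, divided by 10). The gene DAZL of the drop rule is not listed under that symbol, and DDX4, MAEL and TDRD1 were used. UMIs were summed for each pig and group, and CPM are UMIs per 1000000 UMIs of a sum. Genes with at least 10 UMIs over 6 sums were tested with edgeR 4.0.16 (R 4.3.3; quasi-likelihood test, TMM scaling, Benjamini-Hochberg adjusted p under 0.05), which was checked on simulated data. DESeq2 1.42.0 was an alternative. Fits with the animal as a replicate block were run beside it: deviations of the same animal's 2 sums from their group means correlated at 0.309, 0.338 and 0.289 over genes, and the pairing comes from the shared library. Named genes were the 10 highest and 10 lowest log2 fold changes among called genes that moved the same way in every pig, for all genes and for genes outside the division lists; 1 of them and 1 listed gene are not reported here. Doublets were marked by Scrublet scores (scanpy 1.11.5; the top 0.8% for each 1000 barcodes), kept, and left out as an alternative, which removed 3 members. Thinning drew 2000 UMIs from each barcode once. Intervals and limits cover counting error only. Promoters and gene positions came from the RefSeq annotation of Sscrofa11.1, in which 490 of 523 listed or named genes matched by symbol.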

Additional observations from a re-analysis of the deposited data

How the results depend on the processing

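The 1253 genes called between members and non-dividing Sertoli barcodes became 3596 with the animal as a replicate block, 91 with non-dividing barcodes matched on UMIs, 348 with barcodes of fewer than 3 division genes as the comparison, and 395 to 682 when 1 pig was left out. Of called genes 57.5% were higher in members, against 79.4% with library size alone (where the median of all genes was 0.08 instead of -0.18) and 46.5% by DESeq2. The 508 genes called against dividing germ barcodes became 143 by DESeq2, 197 with filterByExpr, and 57 to 252 when 1 pig was left out. Of the settings for the 29 genes of the naming rule, 341 kept direction and call, 35 lost the call, 16 of them with matched barcodes, and 0 reversed; the block lost the call of none. The cause of these changes was not tested. The mean share of the pigs was 7.74% (SD between pigs 7.03). It was 1.45% after thinning to 1000 UMIs and 10.1% without the drops, while single pigs moved by more, as pig 3 did from 15.9% to 1.57% with thinning to 2000 UMIs. The 27 members and 102798 UMIs of pig 1, and the 4 and 6 dividing germ barcodes of pig 1 and 2, limit what single genes can show.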
